A study of Homo sapiens with 8 samples.

Results

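NKRF peaks called in MDA-MB-231-P3 cells that had received a control siRNA were described here, for each of the 2 control lists on its own. All peaks on chromosomes 1 to 22 were taken from both lists: 7380 of 7444 peaks of control replicate 1 and 896 of 902 of control replicate 2, or 8276 of the 20386 peaks in the 4 lists of the series. NKRF was immunoprecipitated from formaldehyde-fixed chromatin with an antibody against it, and the DNA was sequenced (ChIP-seq) beside input DNA. MDA-MB-231-P3 is a highly metastatic subline of a human triple-negative breast cancer line. The control group held 2 NKRF libraries (control siRNA) and the group used for contrast held 2 from cells given siRNA duplexes that target Uc003xsl.1, a long non-coding RNA (si-Uc003xsl.1). All libraries come from this 1 subline with its endogenous NKRF, and nothing in the labels says that replicates are separate cultures. No value in these lists checks the siRNA labels.

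NKRF, the NF-kB repressing factor, is a nuclear protein first known for binding a negative regulatory element in promoters such as those of IFNB1 and CXCL8, where it limits transcription driven by NF-kB. It is also concentrated in the nucleolus, where it acts with the exonuclease XRN2 and the helicase DHX15 in processing of ribosomal RNA precursors. A sequence-specific factor of this kind is usually looked for at gene starts, so the neighbourhood of each peak was described first.

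Few control peaks touched an annotated gene start, and those promoters are shown because they are the places in these lists where a peak can be set beside promoter sequence. Windows of 300 bases around start sites (250 before, 50 after) came from RefSeq, build GRCh38.p14, and numbered 33725 on the autosomes, which included alternative starts of some genes. Peaks of control replicate 1 overlapped 28 windows of 27 genes, and peaks of control replicate 2 overlapped 5 windows of 5 genes. The 250 upstream bases of 7 of these genes follow, read 5′ to 3′ on the strand of the gene, with the bases under the peak in capitals. They were TMEFF1 (chr9:100472899-100473148, plus strand), SCN2A (chr2:165240810-165241059, plus strand), PRKACB (chr1:84181387-84181636, plus strand), ERAP2 (chr5:96876250-96876499, plus strand) and OLFM2 (chr19:9936516-9936765, minus strand) from control replicate 1, and CDH7 (chr18:65750762-65751011, plus strand) and ATP13A4 (chr3:193554896-193555145, minus strand) from control replicate 2.
TMEFF1: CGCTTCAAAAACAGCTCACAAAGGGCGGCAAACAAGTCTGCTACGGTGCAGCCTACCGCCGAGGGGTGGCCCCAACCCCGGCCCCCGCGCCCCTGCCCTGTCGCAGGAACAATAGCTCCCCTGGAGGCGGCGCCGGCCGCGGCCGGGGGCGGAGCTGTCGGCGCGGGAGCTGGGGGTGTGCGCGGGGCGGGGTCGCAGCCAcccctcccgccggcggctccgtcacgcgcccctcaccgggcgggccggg
SCN2A: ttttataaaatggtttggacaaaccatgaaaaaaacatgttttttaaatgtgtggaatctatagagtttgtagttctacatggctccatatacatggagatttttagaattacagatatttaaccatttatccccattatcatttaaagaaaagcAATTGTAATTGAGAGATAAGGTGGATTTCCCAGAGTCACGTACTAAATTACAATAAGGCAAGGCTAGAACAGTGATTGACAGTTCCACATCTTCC
PRKACB: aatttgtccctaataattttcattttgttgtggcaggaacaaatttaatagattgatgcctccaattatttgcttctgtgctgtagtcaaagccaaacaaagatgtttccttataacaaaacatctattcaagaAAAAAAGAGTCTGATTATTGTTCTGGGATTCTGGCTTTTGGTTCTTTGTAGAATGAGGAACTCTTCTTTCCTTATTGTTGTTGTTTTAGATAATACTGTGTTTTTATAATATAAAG
ERAP2: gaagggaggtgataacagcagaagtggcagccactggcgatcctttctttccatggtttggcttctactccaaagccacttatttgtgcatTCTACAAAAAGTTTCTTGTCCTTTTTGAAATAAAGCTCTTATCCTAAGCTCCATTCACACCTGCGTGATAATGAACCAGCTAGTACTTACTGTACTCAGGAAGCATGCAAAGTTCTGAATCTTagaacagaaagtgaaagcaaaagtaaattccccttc
OLFM2: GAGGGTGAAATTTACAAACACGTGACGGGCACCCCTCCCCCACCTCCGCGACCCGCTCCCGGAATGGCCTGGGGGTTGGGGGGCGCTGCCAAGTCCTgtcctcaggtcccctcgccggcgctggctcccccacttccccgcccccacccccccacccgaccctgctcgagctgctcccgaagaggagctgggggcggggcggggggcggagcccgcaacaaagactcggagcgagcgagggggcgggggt
CDH7: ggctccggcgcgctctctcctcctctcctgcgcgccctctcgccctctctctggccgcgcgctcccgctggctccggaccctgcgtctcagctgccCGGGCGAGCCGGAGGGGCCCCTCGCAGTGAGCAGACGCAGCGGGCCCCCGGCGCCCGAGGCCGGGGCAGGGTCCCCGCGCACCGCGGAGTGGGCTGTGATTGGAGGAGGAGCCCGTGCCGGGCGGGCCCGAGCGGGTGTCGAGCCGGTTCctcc
ATP13A4: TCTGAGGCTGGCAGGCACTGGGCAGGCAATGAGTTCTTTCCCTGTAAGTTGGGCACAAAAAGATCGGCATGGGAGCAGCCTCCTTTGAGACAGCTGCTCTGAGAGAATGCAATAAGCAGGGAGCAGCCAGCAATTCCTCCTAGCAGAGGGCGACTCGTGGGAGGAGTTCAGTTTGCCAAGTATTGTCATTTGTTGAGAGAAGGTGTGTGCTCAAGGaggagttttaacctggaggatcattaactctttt

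These promoters differed widely in base composition. The window of SCN2A, a neuronal sodium channel gene, was 33.3% G and C with 1 CpG, and that of PRKACB, which encodes a catalytic subunit of protein kinase A, was 32.7% with 0 CpG. TMEFF1, which encodes a transmembrane protein with follistatin-like domains, had 74.0% and 37 CpG, and OLFM2, an olfactomedin family gene, had 75.3% and 31 CpG. Over the 28 windows of control replicate 1 the median was 43.3% G and C (range 31.3 to 79.3), against 58.7% over all autosomal windows. Of these 28, 7 (25%) reached 60% G and C, against 46.98% of all windows. The 5 windows of control replicate 2 had a median of 69.3% (range 42.0 to 78.3), with 78.3% at CDH7, a cadherin gene, and 52.0% at ATP13A4, which encodes a cation-transporting ATPase. Given their number, these medians are a description only.

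The consensus of NF-kB sites, searched on both strands, was found in 2 of the 28 windows of control replicate 1 (7.14%), at LOC100131635 and at 1 start of NAP1L4, which encodes a histone chaperone. It was found in 0 of the 5 windows of control replicate 2 and in 11.3% of all windows. The letters TATAAA, searched on both strands, were present in 5 of 28 (17.9%), including SCN2A and PRKACB, in 0 of 5 and in 11.6% of all windows. No window of either list held both.

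At these gene starts the peaks were low. The TMEFF1 window lay under the peak at 100472802 to 100473099 on chromosome 9, which held 15 tags, the largest number in control replicate 1, at a fold over input of 6.81. Its summit was 302 bp upstream of that start, inside the readthrough gene MSANTD3-TMEFF1 and 43 bp inside the lncRNA gene LOC124902237, whose own start faces it. The next were the lncRNA gene LOC100131635 with 9 tags and a summit upstream of its start (-333 bp), TDRD12, a germline piRNA pathway gene, with 9 tags and a summit 152 bp upstream (-152), and SCN2A with 8 tags and a summit at 4 bp past the start. PRKACB (-31 bp), NECAP1 (-4 bp), an endocytosis gene, ERAP2 (-113 bp), which encodes an aminopeptidase that trims antigen peptides, HRH4 (-38 bp), a histamine receptor gene, and OLFM2 (-200 bp) each held 7 tags. The pileup in control replicate 2 was 9 at STARD7-AS1, 6 at ATP13A4 (-222 bp) and 6 at CDH7 (-115 bp). The OLFM2 peak, at 9936669 to 9936778 on chromosome 19, was the one in control replicate 1 among these windows that overlapped a peak of another list, at 9936406 to 9936694 with 10 tags in si-Uc003xsl.1 replicate 2. The control replicate 2 peak at LOC124907917 overlapped one of 16 tags in si-Uc003xsl.1 replicate 1. How often peaks of each whole control list overlap another list is not given, so these overlaps are a description.

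Control replicate 1 consisted almost wholly of narrow peaks at the lowest tag counts. It was called with MACS 1.4.2 from 19335431 NKRF tags of 50 bp against 19363334 input tags at a p-value threshold of 1e-04. The caller used an extension of 49 bp, shorter than the tag. Tags per peak ran from 6 to 15 with a median of 6: 5028 peaks (68.1%) had 6 tags, 1574 had 7, 492 had 8, 183 had 9 and 103 (1.396%) had 10 or more. The caller gave all of these autosomal peaks the same false discovery rate, 100%. By that measure no peak of the list is told apart from a false call, and no subset stands out. Widths ran from 52 to 298 bp with a median of 134 bp and quartiles of 121 and 143 bp. Width rose with tags, from a median of 130 bp at 6 tags to 157 bp at 8 and 191 bp at 10 (Spearman rho 0.50 across 7380 peaks, which share the same tags). The fold over input had a median of 12.02 and was nearly unrelated to tags (rho 0.05), with 11.9 at 6 tags, 12.3 at 8 and 8.95 at 11. All peaks together covered 986091 bp, or 0.0343% of the autosomes.

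The list of control replicate 2 came from MACS 2.1.1.20160309, run on 8250475 NKRF tags of 105 bp against 11886717 input tags at a q-value threshold of 0.05. Its height is the pileup, the number of extended tags over the summit, and is not on the scale of the tags above. Pileups had quartiles of 6 and 8 and a median of 7, with 46 peaks (5.13%) at 10 or more. The highest stood alone at 300, followed by 13. A total of 468 peaks (52.2%) measured exactly 150 bp, the extension the caller used, and none was narrower, while the widest measured 382 bp. Width was unrelated to pileup over the other 895 peaks (rho -0.02), whereas the fold, with a median of 5.41, rose with it (rho 0.77). The 896 peaks covered 155902 bp.

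**Figure D1:**
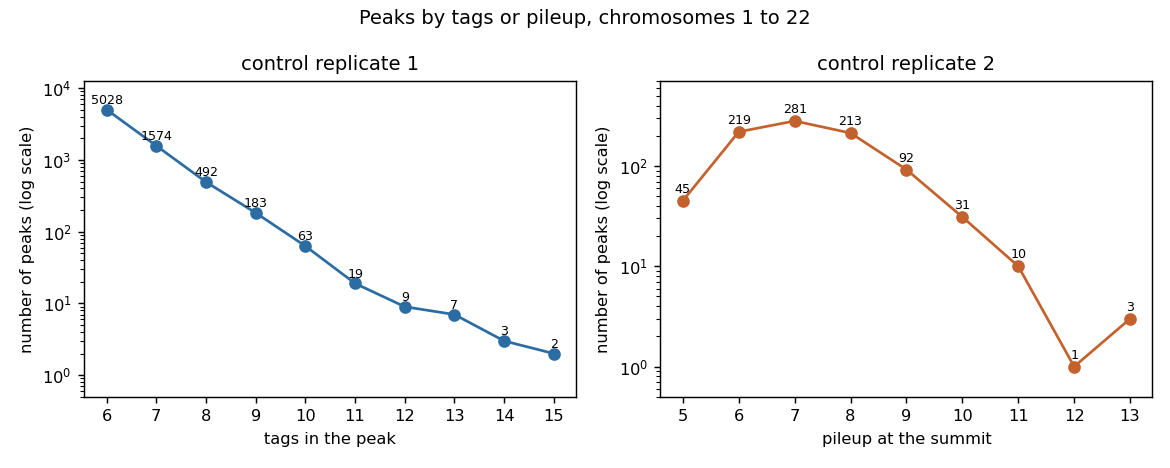
Number of peaks (log scale) at each number of tags in control replicate 1 (left) and each pileup in control replicate 2 (right), chromosomes 1 to 22, with the single peak of pileup 300 left out of the right panel. Counts fall from 5028 peaks at 6 tags to 2 at 15 on the left, and centre on a pileup of 7 (281 peaks) on the right.

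Ranked by tags, the highest peaks of control replicate 1 were spread over genes of unrelated roles and gene-free sequence. Of the top 10, 6 lay inside a protein-coding gene, 4 outside all genes and 2 over 100 kb from any protein-coding gene. First came a 91-bp peak of 15 tags on chromosome 8 at 85769573 to 85769663, 5399 bp from the pseudogene REXO1L2P, and second the TMEFF1 peak. ZMAT2, a gene of the splicing machinery, held a peak of 14 tags on chromosome 5 (140700649 to 140700885). Its summit lay inside the gene and 347 bp from the start or the finish of the gene, whichever is nearer. Peaks of 14 tags also lay 12367 bp from MTCO1P47, a mitochondrial pseudogene on chromosome 8, and 79 bp from COMMD4P1 on chromosome 15. The strongest by p-value in the list was inside ACYP2, an acylphosphatase gene, at 54188898 to 54189114 on chromosome 2, with 13 tags, a fold of 21.0 and -log10 p of 9.18. FCGR2A, an Fc receptor gene of myeloid cells, held 13 tags at a fold of 13.6. STK17B, a kinase gene, and KLHL18, a ubiquitin ligase adaptor gene, held 13 tags each, as did a peak 124634 bp from LOC107984373 on chromosome 11. The order depends on the measure: 0 of these 10 were among the top 10 by fold and 1 by -log10 p. None overlapped a peak of the other 3 lists. The share of the whole list that overlaps another is not given here, so this is not read as a trait of the highest peaks.

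By pileup, the top peak of control replicate 2 lay at 93470387 to 93470768 on chromosome 3, in sequence without genes, 402550 bp from PROS1. Its pileup of 300 came with a fold of only 1.44 over input, the lowest of the list. It overlapped a peak of si-Uc003xsl.1 replicate 2 at 93470345 to 93470816, which held 748 tags, and was the 1 peak of the top 10 to overlap another list. The share of the whole list that does so is not given here. GNL1, a GTPase-like gene of the major histocompatibility region, came second with a pileup of 13 and a fold of 7.31 at 30543273 to 30543509 on chromosome 6. SEPTIN9, which encodes a cytoskeletal septin, also had 13, at a fold of 4.54, as did a peak 17124 bp from COX6A1P2 on chromosome 6. CYRIB, a regulator of actin remodelling, had 12 and a fold of 8.21 at 129871270 to 129871487 on chromosome 8. At a pileup of 11, HAPSTR1, a stress response gene, and a peak 5057 bp from LINC00114 on chromosome 21 shared the highest fold, 8.57. ZNF451, a SUMO ligase gene, MEOX1, a homeobox gene, and a peak 7899 bp from PPP1R2P6 on chromosome 7 completed the 10. Of these, 6 lay inside protein-coding genes and 0 within 1 kb of either end (start or finish) of the named gene. Ranked by fold or by -log10 p, 5 of the 10 stayed.

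Gene ends were not favoured in control replicate 1. Within 1 kb of an end (start or finish) of any annotated gene lay 352 of 7380 summits (4.77%, exact Clopper-Pearson 95% interval 4.30 to 5.28). Of all autosomal bases, 6.24% lie that close, and 5.54% when each 10-Mb region is weighted by its peaks. These intervals cover counting error only. Close to a protein-coding gene end the share was 1.37% (interval 1.12 to 1.66) against 1.99% of region-weighted bases, and close to an annotated start site 1.29% (1.04 to 1.57) against 1.64%. LncRNA gene ends had 2.21% of summits (1.89 to 2.57) against 2.22% of region-weighted bases, so their share was that of the sequence around them. For ends of any gene the share was lowest among the peaks of 6 tags, at 3.998% (3.47 to 4.58). Peaks of 7 tags had 6.04% (4.91 to 7.33) and all peaks above 6 tags together 6.42%, close to the share of all bases. Close to start sites the share was 1.21% at 6 tags, 1.398% at 7, 1.22% at 8 and 1.09% at 9, each below the region-weighted share, and 3.88% (4 of 103, interval 1.07 to 9.65) at 10 or more.

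Gene bodies held more of the list. Inside protein-coding genes lay 3278 summits (44.4%, interval 43.3 to 45.6), against 42.1% of all bases and 41.9% of region-weighted bases. Inside lncRNA genes and no protein-coding gene lay 13.6% (12.8 to 14.4) against 14.02%, inside pseudogenes 1.23% against 1.30%, and outside all genes 40.9% (39.8 to 42.0) against 42.97%. Genes longer than 500 kb held 976 summits (13.2%, 12.5 to 14.02) against 11.4% of region-weighted bases. That share fell with tags, at 14.2% for 6 tags, 12.7% for 7, 9.76% for 8, 8.20% for 9 and 1 of 103 (0.971%, interval 0.0246 to 5.29) for 10 or more. Over the same classes the share inside any protein-coding gene rose from 43.2% to 45.6%, 47.0%, 53.6% and 58.3% (interval 48.1 to 67.9). Peaks outside protein-coding genes lay a median of 152110 bp from the nearest one, and 859 of 4102 (20.9%) were over 500 kb away. Of all bases outside such genes, 23.1% are that far, with a median of 124116 bp.

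Most classes of gene neighbourhood in control replicate 2 held shares close to those of the sequence. Within 1 kb of any gene end lay 64 of 896 summits (7.14%, interval 5.54 to 9.03) against 6.17% of region-weighted bases, and close to start sites 2.23% (1.37 to 3.43) against 1.89%. LncRNA gene ends had 2.79% (1.81 to 4.09) against 2.44%. Protein-coding genes held 432 summits (48.2%, interval 44.9 to 51.5), above the 43.7% of region-weighted bases. Outside all genes lay 38.6% (35.4 to 41.9) against 41.7%, and inside genes longer than 500 kb 10.8% (8.87 to 13.05) against 10.4%. The share inside protein-coding genes was 42.8% at pileups of 5 and 6, 45.6% at 7, 52.1% at 8, 65.2% (54.6 to 74.9) at 9 and 43.5% (28.9 to 58.9) among the 46 peaks of 10 or more, so it did not keep rising with height. Outside protein-coding genes the median distance to the nearest one was 84812 bp.

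**Figure D2:**
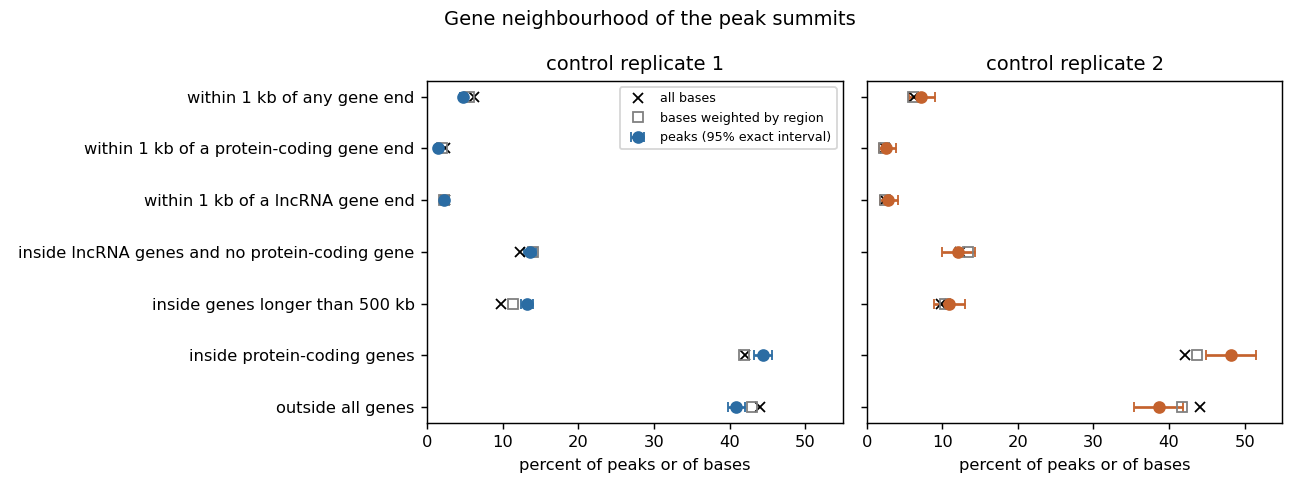
Percent of peak summits in each class of gene neighbourhood (circles, with exact 95% intervals), beside the percent of all autosomal bases (crosses) and of bases weighted by the peaks of each 10-Mb region (squares), for control replicate 1 (left) and 2 (right). Circles lie near the squares in most classes; the share inside protein-coding genes is above them in both lists, at 44.4% and 48.2%.

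Position along the gene gave the same picture for gene starts. In protein-coding genes of at least 10 kb with a known strand, the first 10% of the gene, counted from the start, held 205 of 2773 summits in control replicate 1 (7.39%, interval 6.45 to 8.43), where an even spread gives 10%. Each later 10% of the gene held between 9.23% and 11.1%. For control replicate 2 the first 10% held 34 of 360 (9.44%, 6.63 to 12.9) and the later steps between 8.33% and 12.2%. In the si-Uc003xsl.1 lists the first 10% held 23.3% and 28.2%, a difference that was not tested. A summit in overlapping genes counted once for each gene.

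**Figure D3:**
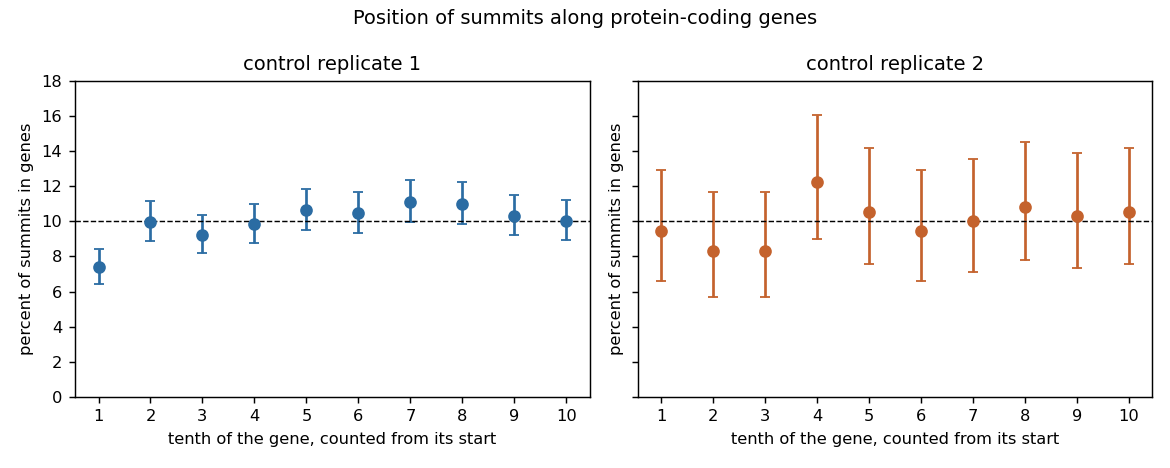
Percent of summits inside protein-coding genes that fell in each successive 10% of the gene from its start, with exact 95% intervals; the dashed line is an even spread of 10%. In control replicate 1 the first step is lowest at 7.39%, and in control replicate 2 the first step holds 9.44%.

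Ends of small RNA genes had about the share of summits that such sequence takes up: 0.149% (interval 0.0744 to 0.267) in control replicate 1 against 0.199% of region-weighted bases, and 0.335% (0.0691 to 0.975) in control replicate 2 against 0.231%. Within 1 kb of a peak of control replicate 1 lay 5 of 1793 miRNA genes, among them MIR30C2, 6 of 1150 snoRNA genes, among them SNORD82 and the neighbours SNORD114-14 and SNORD114-15, 1 of 439 tRNA genes and 0 of 151 snRNA and 0 of 49 rRNA genes on the autosomes. Near peaks of control replicate 2 were 2 miRNA genes, MIR7-1 and MIR12127, and 1 snoRNA gene.

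Very long genes of different roles held most peaks per gene in control replicate 1. A peak lay inside 1932 of 19126 protein-coding genes (10.1%) and inside 220 of the 303 longer than 500 kb (72.6%). The genes with a peak had a median length of 139.5 kb, against 24.5 kb over all. EYS, a photoreceptor gene of 1.99 Mb on chromosome 6, held 23 peaks of 6 to 8 tags, or 11.6 per Mb where its 10-Mb regions held 7.30 per Mb. CNTNAP2, a neurexin family gene, held 21 (9.11 per Mb against 4.50). CNTN5, a contactin gene, held 19 (14.2 against 10.6), and NAALADL2 on chromosome 3 also held 19 (13.9 against 8.70). LRP1B, a lipoprotein receptor family gene, held 13 (6.84 against 5.50). Each gene was denser than the regions it lies in, and these genes were picked for their counts, so this is a description. In control replicate 2, EYS, NAALADL2 and LRP1B held 1 peak each and CNTNAP2 and CNTN5 held 0. In the si-Uc003xsl.1 lists EYS held 0 and 8 peaks, CNTNAP2 5 and 6, CNTN5 2 and 2, NAALADL2 4 and 2 and LRP1B 1 and 0.

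A peak of control replicate 2 lay inside 415 of 19126 protein-coding genes (2.17%) and inside 72 of 303 long ones (23.8%), and 29 genes held 2 or more. OPCML, an adhesion molecule gene on chromosome 11, held 5 peaks with pileups of 6 to 9, or 4.47 per Mb. Its region held 0.60 per Mb when counted over a full 10 Mb, peaks of OPCML included. Chromosome 11 ends near 135.1 Mb, so that last region is shorter and 0.60 is too low a density. The gene was picked for its count, so this is a description. In control replicate 1 OPCML held 9 peaks. ADGRB3, an adhesion receptor gene of the brain, and PDE4D, a phosphodiesterase gene, held 3 each. CHRM5, a muscarinic receptor gene, and BCAS1, a gene of the chromosome 20 arm often amplified in breast cancer, held 2 each within 0.0990 and 0.127 Mb. They are named because ties went to the shorter gene, so their small lengths follow from that rule.

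Members of gene lists were counted when a peak lay inside the gene or within 10 kb of it. In control replicate 1 this held for 12.2% of all autosomal protein-coding genes and for 72.9% of those over 500 kb. Among 30 long adhesion, synapse and fragile-site genes, all over 500 kb, 24 had a peak (80%), close to the share of long genes in general. The highest were at CTNND2 (11 peaks inside, up to 11 tags), CNTNAP2, DAB1, GPC6 (up to 9 tags each) and CTNNA3 (8 tags). Of 15 invasion and mesenchymal genes, whose median length is 23.6 kb, 6 had a peak (40%). Of these, CDH2 (244.3 kb), ZEB1 (211.4), CD44 (93.2) and ITGB1 (57.9) are longer than that median, and LOX (15.1) and MMP1 (8.24) shorter. The list was chosen with earlier results of these data known, so this share is a description and was not tested. CDH2, the N-cadherin gene, held 2 peaks, the higher with 9 tags at 28114314 to 28114490 on chromosome 18. ZEB1, a transcription factor gene of mesenchymal transition, held 2 of up to 7 tags. LOX, a collagen cross-linking enzyme gene, had 1 inside and 1 nearby of up to 7, and MMP1, a collagenase gene, 1 of 6 tags. Of the adhesion receptor genes, CD44 had 1 peak inside and 1 nearby, and ITGB1 had 0 inside and 1 nearby. The highest-ranked peaks of CD44 and ITGB1, also of 6 tags, lay 6224 and 4714 bp outside them. Of 12 NF-kB subunit and inhibitor genes 2 had a peak (16.7%): NFKB1, which encodes the p50 subunit, with 8 tags and a fold of 16.5 at 102512848 to 102513028 on chromosome 4, and NFKBIZ, a nuclear IkB protein gene, with 7 tags. Of 11 autosomal genes of ribosome biogenesis and NKRF partners 2 had one (18.2%): DHX15, the helicase that works with NKRF, with 7 tags at 24559713 to 24559845 on chromosome 4, and NCL, the nucleolin gene, with 6 tags. Of the 3 known NKRF target genes (NOS2, IFNB1, CXCL8) 0 had one.

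In control replicate 2 the background was 2.68% of all protein-coding genes and 24.1% of those over 500 kb. Of the 30 long genes 10 had a peak (33.3%), led by GPC6, NRG3 and OPCML with pileups of 9, then NRXN3 and ROBO2 with 7. Of the 15 invasion genes 2 had one, CDH2 with a pileup of 9 at 27970468 to 27970617 on chromosome 18 and ZEB1 with 8 at 31453126 to 31453308 on chromosome 10. Both genes also had peaks in control replicate 1, at other positions inside the gene. At 244.3 and 211.4 kb, both are longer than the median of their list, 23.6 kb. The NF-kB, ribosome and NKRF target lists had 0 members with a peak. A list of called peaks shows nothing below the threshold of the caller, so binding there was not detected at this depth.

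Peaks of control replicate 1 stood closer together than an even scatter within each 10-Mb region gives. Summits had a median spacing of 157.5 kb, and 804 of 7380 (10.9%, interval 10.2 to 11.6) had another summit within 10 kb, against 7.92% from the density of each region. They formed 343 pairs, 34 groups of 3 and 4 groups of 4, the largest size. All peaks of a group count as neighboured, so the interval, which takes peaks as independent, is too narrow. The groups of 4 lay 251273 bp from RIMS1 at 71626658 to 71643902 on chromosome 6, inside UBE2U at 64229073 to 64245958 on chromosome 1, inside CTNNA3 at 67048505 to 67061398 on chromosome 10, and 42813 bp from TAS2R1 at 9938345 to 9955030 on chromosome 5. All peaks of these 4 groups held 6 or 7 tags. Next in order was a group of 3 peaks of 7 to 10 tags on chromosome 4 at 66420261 to 66429608, 754446 bp from EPHA5. Neighboured and single peaks had the same median of 6 tags, and median widths of 135 and 134 bp. Among peaks above 6 tags, which are fewer, 4.68% had a neighbour.

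The median spacing in control replicate 2 was 1658 kb. There 14 of 896 peaks (1.56%, interval 0.857 to 2.61) had a neighbour within 10 kb, in 7 pairs, against 0.848% from the region densities. Both peaks of a pair count, so the interval, which takes peaks as independent, is too narrow. With 7 pairs the difference from 0.848% is a description only. The closest pair lay inside OPCML at 133170994 to 133171514 on chromosome 11, with summits 347 bp apart and pileups of 7 and 9. Pairs also lay in ZNF664-RFLNA, CFAP54 and ASAP1, which encodes a regulator of cell adhesion and invasion.

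Chromosomes differed widely in peak density. In control replicate 1 it was highest on chromosomes 11 (4.26 per Mb), 5 (4.11) and 3 (3.72) and lowest on 22 (0.374), 15 (0.539), 19 (0.887) and 16 (0.942). Chromosome 19, with 24.8 protein-coding genes per Mb, held 52 peaks, and chromosome 13, with 2.96 genes per Mb, held 373. Across the 22 chromosomes, peaks and protein-coding genes per Mb had r = -0.39 and rho = -0.48. Across 278 full 10-Mb regions it was r = -0.25 and rho = -0.18, where all regions share 1 library. In control replicate 2 the densest were chromosomes 20 (0.513 per Mb), 5 (0.507), 11 (0.503) and 3 (0.459), and the sparsest 15 (0.118), 19 (0.137) and 22 (0.158), with r = -0.21 and rho = -0.12 across chromosomes and r = -0.04 and rho = 0.07 across the 10-Mb regions. The si-Uc003xsl.1 lists had rho = 0.41 and 0.54 with genes across the same regions.

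**Figure D4:**
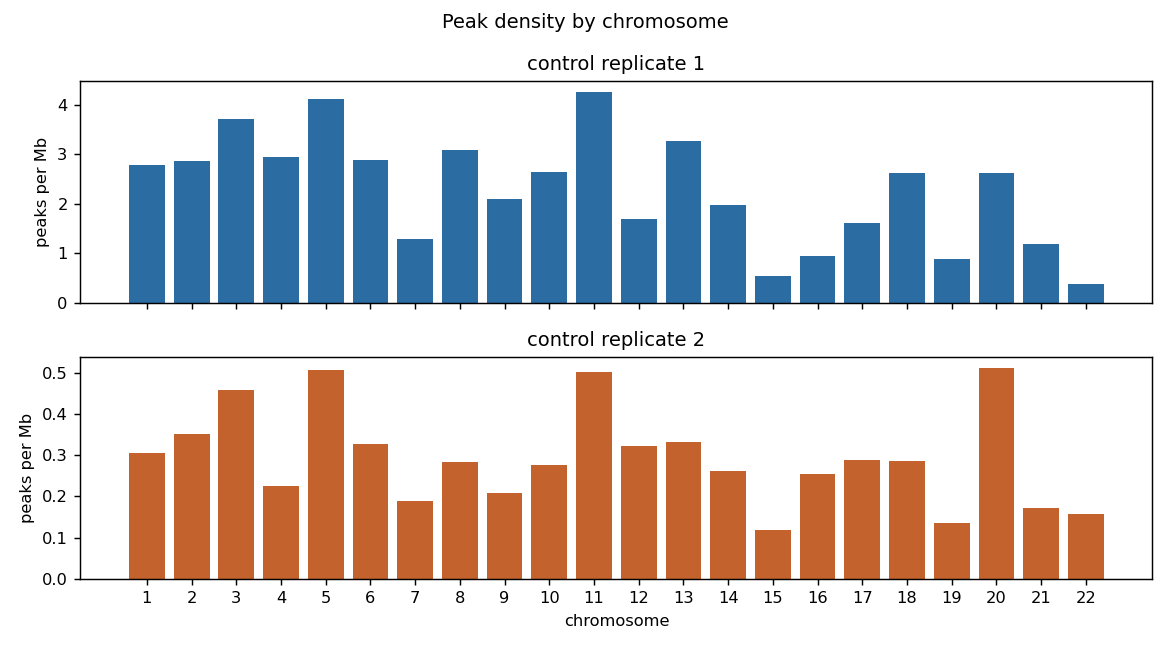
Peaks per Mb on chromosomes 1 to 22 in control replicate 1 (top) and control replicate 2 (bottom), each on its own axis, since the lists came from different callers and thresholds. Chromosomes 3, 5 and 11 are among the densest in both panels, and 15, 19 and 22 among the sparsest.

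Along single chromosomes, the density of control replicate 1 changed in steps. The 10-Mb regions held from 0 to 108 peaks with a median of 20, and the densest 28 of 278 held 26.2% of the peaks. The highest were 160 to 170 Mb on chromosome 3 (108 peaks) and 90 to 100 and 100 to 110 Mb on chromosome 11 (106 each). On chromosome 8, regions below 80 Mb held 3 to 15 peaks each and regions above it 37 to 78, or 0.963 against 6.05 per Mb. Chromosome 6 went the other way at 80 Mb, from 4.89 to 1.12 per Mb, as did chromosome 18 at 50 Mb, from 3.78 to 0.733. On chromosome 3 the density was 2.64 below and 8.93 above 160 Mb.

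These boundaries were set where the ratio of densities in control replicate 1 was highest, so the steps there are a description. The other lists did not set them. In control replicate 2 the density was 0.100 and 0.533 per Mb on the 2 sides of the chromosome 8 boundary, 0.563 and 0.111 on chromosome 6, 0.380 and 0.133 on chromosome 18 and 0.388 and 0.600 on chromosome 3. It changed in the same direction as control replicate 1 on 18 of the 19 chromosomes long enough to be split, and protein-coding genes per Mb did so on 9. The si-Uc003xsl.1 lists did so on 17 of 19 each, with 1.36 against 2.95 and 0.575 against 1.73 per Mb on chromosome 8. On chromosomes 13, 14 and 15 the sparse side is the start of the chromosome, which holds little assembled sequence.

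Against the si-Uc003xsl.1 libraries, control peaks lay more often in gene-free sequence and in very long genes and less often at gene ends, those of lncRNA genes included, in both libraries of each group. Outside all genes the shares were 40.9% and 38.6% in control replicates 1 and 2 and 35.1% and 29.2% in si-Uc003xsl.1 replicates 1 and 2, or 39.8% ± 1.61 (SD, n = 2) against 32.2% ± 4.11 (SD, n = 2). The difference was 7.61 percentage points. Region-weighted bases outside all genes made up 42.97% and 41.7% for the control lists and 40.2% and 39.2% for the si-Uc003xsl.1 lists. Every share was below that of its bases, and those of the control lists by less. At lncRNA gene ends the shares were 2.21% and 2.79% against 6.49% and 8.42%, with means of 2.499% ± 0.41 and 7.45% ± 1.36 (SD, n = 2 each) and a difference of -4.95 points. The region-weighted bases were 2.22% and 2.44% for the control lists, near their shares, and 2.59% and 2.77% for the others. Inside genes longer than 500 kb the shares were 13.2% and 10.8% against 7.49% and 6.27%, with means of 12.03% ± 1.70 and 6.88% ± 0.86 (SD, n = 2 each) and a difference of 5.15 points. Here the region-weighted bases were 11.4% and 10.4% for the control lists and 9.96% and 9.26% for the others. Other gene ends differed in the same direction. Close to protein-coding gene ends lay 1.37% and 2.57% of control summits against 16.1% and 21.9%, and close to start sites 1.29% and 2.23% against 15.2% and 20.8%. Within 1 kb of any gene end the shares were 4.77% and 7.14% against 21.9% and 28.1%. Differences at these ends were not tested. All classes are shares of the same lists, so a larger share at gene ends leaves less for other classes. The 3 tested differences are therefore not separate results. The groups did not overlap in any of the 3 tested shares. Each SD is of 2 lists, and the 2 control lists came from different callers and thresholds, so it does not measure the spread of replicates alone. The two-sided exact permutation test gave p = 0.333 for each, also after Benjamini-Hochberg adjustment over the 3, which is the smallest p that 2 libraries per group allow. Control replicate 2 came from another version of the caller, with a q-value threshold, and NKRF tags numbered 19335431 and 8250475 in the control libraries and 18890698 and 11366267 in the others. The part of depth in these differences was not tested. All autosomal peaks of control replicate 1 had a false discovery rate of 100%, which limits what its shares can show. Without control replicate 2, which leaves lists of 1 caller version and threshold, the differences were 8.74, -5.25 and 6.35 points. The extension still differed among those lists, at 49 bp in control replicate 1 and 60 and 67 bp in si-Uc003xsl.1 replicates 1 and 2. Without si-Uc003xsl.1 replicate 2 the first difference was 4.70 points.

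**Figure D5:**
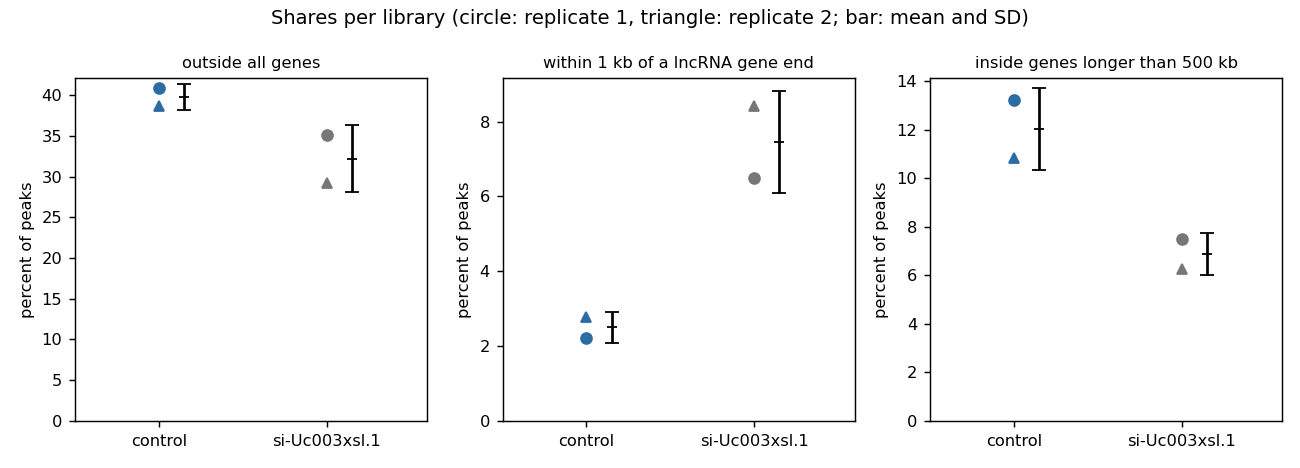
Percent of peaks outside all genes (left), within 1 kb of a lncRNA gene end (middle) and inside genes longer than 500 kb (right) in each NKRF library, with mean and SD per group (n = 2). Control libraries lie above si-Uc003xsl.1 libraries in the left and right panels and below them in the middle one.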

How the data were processed

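Peak lists of 4 NKRF ChIP-seq libraries were used, and groups and replicate numbers came from the sample titles. Bowtie2, CASAVA 1.4 and GRCh38.p11 are named in the submitters' processing notes. Peaks were called per library against 1 input library, keeping 1 tag per position, per the file headers. For control replicate 1 and both si-Uc003xsl.1 lists the deposited values are the count of tags per peak, a score (the p-value on a log10 scale, times -10), the fold (ratio) over input and a false discovery rate in percent, per the file headers. For control replicate 2 they are the pileup signal, -log10 of p and q, and the fold, per the file headers. Tags and pileups are the authors' own values per peak and were used only to describe and rank within a list.

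Summits were placed against 56756 autosomal RefSeq genes (19126 protein-coding, GRCh38.p14), with Python 3.11.15, pandas 2.3.3 and SciPy 1.17.1. No gene coordinate is printed other than those of the shown promoter windows. The lists and the gene table thus come from different patches of 1 build. Positions every 1 kb stood for all bases, assembly gaps included, up to the last gene or peak of a chromosome. The expected share of neighboured peaks took peaks as evenly scattered within each 10-Mb region. Placement was tested on simulated data. The members and lists were chosen with earlier results of these data known. Named were the 10 highest peaks, the 5 genes with most peaks, the 5 largest groups of neighbours, up to 10 promoter peaks and up to 5 members of each gene list, and others, chosen after their values were seen, only where a count needed them. One group of neighbours is not reported here. Ties in rank were broken by -log10 p, then fold, for peaks, and by shorter length for the genes with most peaks. Group shares were compared by exact permutation over 3 splits of 4 libraries.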

Additional observations from a re-analysis of the deposited data

Results flagged for a closer look

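Peaks outside chromosomes 1 to 22 were left out above. Control replicate 1 had 64 such peaks, 38 on chromosome X, 2 on Y and 24 on scaffolds, with 6 to 29 tags and a median of 6. Control replicate 2 had 6, all on chromosome X, with pileups of 6 to 9.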

How the results depend on the processing

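Of 53 recomputed values, 38 stayed within the 95% interval of the value given (shares, medians) or kept its direction and side of the threshold (group differences), and 15 moved. For the group differences only the direction could change. With 2 libraries per group p cannot fall below 0.333, so the side of the threshold was fixed in advance. In control replicate 1, keeping only the 2352 peaks above 6 tags gave 6.42% within 1 kb of a gene end, 47.1% inside protein-coding genes, 38.6% outside all genes, 4.68% with a neighbour and a median width of 147 bp. A window of 5 kb gave 18.5% and 25.1% near gene ends in control replicates 1 and 2, where 23.2% of all bases lie. Neighbours within 5 kb and 25 kb gave 5.53% and 22.8% in control replicate 1 and 0.670% and 2.90% in control replicate 2. The top 10 by tags or pileup shared 0 and 5 peaks with those by fold and 1 and 5 with those by -log10 p. Without each replicate in turn, the group differences ranged from 4.70 to 10.5 points outside all genes, from -5.92 to -3.99 at lncRNA gene ends and from 3.95 to 6.35 in long genes. With the replicate number as a block they were the same 7.61, -4.95 and 5.15 points with an exact sign-flip permutation p = 0.5, the smallest that 2 pairs allow, and nothing in the labels says that equal numbers share a culture. Peaks of 6 tags in 19335431 tags, all at a false discovery rate of 100%, limit what control replicate 1 can show.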
